A study of Homo sapiens with 6 samples.

Results

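Genes that govern entry into the cell cycle were examined for open chromatin, 10 in all: the D-type cyclins CCND1, CCND2 and CCND3, cyclin E1 (CCNE1), the kinases CDK4 and CDK6, the retinoblastoma gene RB1, the transcription factors E2F1 and E2F3, and the kinase inhibitor gene CDKN1A. Members were all peaks overlapping 1 fixed hg19 window around each gene, 10 windows of 30 to 260 kb and 995 kb in all. These windows held 77 of the 127153 peaks called in control cells and 75 of the 112610 peaks called in cells with HMGA1 silenced. The assay was ATAC-seq, in which the Tn5 transposase cuts and tags accessible DNA. Both groups were DAMI cells, an established human leukaemia line labelled MPN/AML (myeloproliferative neoplasm and acute myeloid leukaemia). The control group was 3 samples infected with a control lentivirus, and the other group was 3 samples infected with shHMGA1 lentivirus, which carries a short hairpin RNA against HMGA1. All groups were therefore infected cells of 1 line; the hairpin sequence, the content of the control vector and the level of HMGA1 left are unstated in the labels, and no marker of the line was checked. HMGA1 is a chromatin protein that binds AT-rich stretches of DNA and can bend them, and the study asks what its silencing does to accessible chromatin. The series text also names SET-2 cells, and it is not stated whether libraries of that line entered the lists. Each group had 1 deposited peak list and no values per sample, so no difference between the lists has a replicate check or a p-value. Read depth is unknown.

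D-type cyclins pair with CDK4 or CDK6 after growth signals, and cyclin E1 pairs with CDK2 later in G1 phase. These kinases phosphorylate the RB1 protein, which otherwise holds E2F factors in check, and freed E2F1 and E2F3 switch on genes of DNA replication. CDKN1A encodes p21, which inhibits cyclin-CDK complexes and is a classic target of p53. CCND3 and CDK6 are known for their roles in blood cell precursors.

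Promoter sequences of 4 of these genes are shown because their windows carry the patterns described below: the E2F pair for peak widths that differed in opposite directions, CCNE1 for its single wide peak, and CDKN1A for its joined peak. They were taken from RefSeq on GRCh38.p14, which lists 12 promoter entries for 8 of the 10 genes (all but CCND1 and CCND2), each running from 250 bases before to 50 bases after an annotated start. Capitals mark matches to 4 forms of the E2F core motif (TTTGGCG or TTTCGCG or TTTCCCG or TTTGCCG), read on both strands.
E2F1, chr20:33686336-33686635, minus strand: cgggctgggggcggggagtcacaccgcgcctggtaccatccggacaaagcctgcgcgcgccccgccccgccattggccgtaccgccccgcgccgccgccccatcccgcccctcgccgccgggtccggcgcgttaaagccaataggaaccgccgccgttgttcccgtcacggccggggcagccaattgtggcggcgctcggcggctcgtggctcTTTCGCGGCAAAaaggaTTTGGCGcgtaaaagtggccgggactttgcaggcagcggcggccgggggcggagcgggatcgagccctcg
E2F3, chr6:20401629-20401928, plus strand, the upstream of 2 entries: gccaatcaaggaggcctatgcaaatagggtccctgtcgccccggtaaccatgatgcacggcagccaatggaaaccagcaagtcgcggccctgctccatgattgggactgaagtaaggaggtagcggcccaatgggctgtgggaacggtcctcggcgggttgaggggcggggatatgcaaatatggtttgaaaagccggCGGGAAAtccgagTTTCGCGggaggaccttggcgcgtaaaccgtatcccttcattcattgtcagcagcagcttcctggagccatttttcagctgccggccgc
CCNE1, chr19:29811741-29812040, plus strand: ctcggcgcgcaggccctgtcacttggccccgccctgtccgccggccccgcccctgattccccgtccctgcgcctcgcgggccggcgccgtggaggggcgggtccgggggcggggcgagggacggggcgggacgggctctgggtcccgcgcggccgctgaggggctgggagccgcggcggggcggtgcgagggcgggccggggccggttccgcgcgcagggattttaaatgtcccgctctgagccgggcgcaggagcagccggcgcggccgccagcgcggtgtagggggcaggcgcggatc
CDKN1A, chr6:36678464-36678763, plus strand: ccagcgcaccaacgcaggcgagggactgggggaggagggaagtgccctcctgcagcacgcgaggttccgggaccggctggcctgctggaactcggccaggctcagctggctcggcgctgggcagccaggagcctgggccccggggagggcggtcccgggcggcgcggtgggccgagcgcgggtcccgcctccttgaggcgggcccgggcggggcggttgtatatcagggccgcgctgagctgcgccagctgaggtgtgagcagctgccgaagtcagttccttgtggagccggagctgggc
The E2F1 promoter held 3 core matches, of which the first and second overlap, all within bases 214 to 237 of the 300 and so just before the start at base 251. The upstream E2F3 promoter held 2, at bases 199 to 205 and 212 to 218. Of all 35116 promoter entries, 8.67% held at least 1 core and 0.681% held 2 or more. No other entry of these genes held one of these 7-letter cores. This covers only the listed entries: CCND1 and CCND2 had none. RB1 had 1 entry, with 61.7% A and T, and whether it is the main RB1 promoter was not determined. A and T made up 26.7% of the E2F1 promoter, 19% of CCNE1 and 25.7% of CDKN1A, less than the median of 41.3% over all entries. The 2 E2F3 entries differed, with 41.7% in the upstream one and 22.7% in the other, which is lower than in E2F1. The peaks are on hg19, so whether a given peak covers one of these promoters was not determined.

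Most accessible sites at the 10 loci were present in both lists. Of the 77 control peaks, 6 (7.79%, exact 95% binomial interval 2.91 to 16.2) had no shHMGA1 peak overlapping by at least 1 bp. The share over the whole control list was 24.9%. Of the 75 shHMGA1 peaks, 4 (5.33%, interval 1.47 to 13.1) had no control peak, against 14.8% over the whole shHMGA1 list. These intervals cover counting error only and treat neighbouring peaks as independent. CCND1, CDK4, E2F1 and CDKN1A had no unshared peak in either list by the 1 bp rule. Under every alternative rule run this held only at CCND1, where 0 of 3 peaks in each list has an exact interval up to 70.8%. A reciprocal overlap of 50% left 3 control-only and 3 shHMGA1-only peaks at CDK4 and 2 and 1 at CDKN1A. With equal numbers of peaks from each list 3 of 7 E2F1 peaks were shHMGA1-only. That last setting keeps only the 56305 peaks of each list with the highest summit −log10 p. The 3 E2F1 sites do have called control peaks, which this cut removed.

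Each of the 10 unshared peaks was weaker than the middle peak of its list. The median −log10 p at the summit, as the authors' peak caller gave it, was 5.25 in control and 5.22 in shHMGA1. The loci were rich in significant peaks, with 80.5% of control members and 74.7% of shHMGA1 members at or above it. Among the members below the median, 6 of 15 control peaks (40%, interval 16.3 to 67.7) and 4 of 19 shHMGA1 peaks (21.1%, interval 6.05 to 45.6) were unshared. The whole lists gave 45.9% and 28.1% there, inside these intervals. At or above the median 0 of 62 control members were unshared, which allows up to 4.84%, against 3.92% in the whole list. For shHMGA1 it was 0 of 56, which allows up to 5.36%, against 1.54%. Divided at the median in this way, the unshared shares of the loci did not differ from those of the lists beyond counting error.

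The number of peaks was nearly equal, 77 and 75, a ratio of 0.974 (binomial interval 0.699 to 1.36) beside 0.886 for the whole lists, which lies inside that interval. The shHMGA1 list held fewer peaks at 4 loci (CCND3, RB1, E2F3 and CDKN1A), equal numbers at 3 (CCND1, CDK4 and E2F1) and more at 3 (CCND2, CDK6 and CCNE1). No locus differed by more than 2 peaks. Peak density over the windows was 7.74 control peaks per 100 kb against 4.17 over chromosomes 1 to 22 and X; the windows were placed on genes and hold parts of neighbouring genes. Covered length was 75851 bp in control and 73954 bp in shHMGA1. The mean peak was 985 bp wide in control and 986 bp in shHMGA1.

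**Figure D1:**
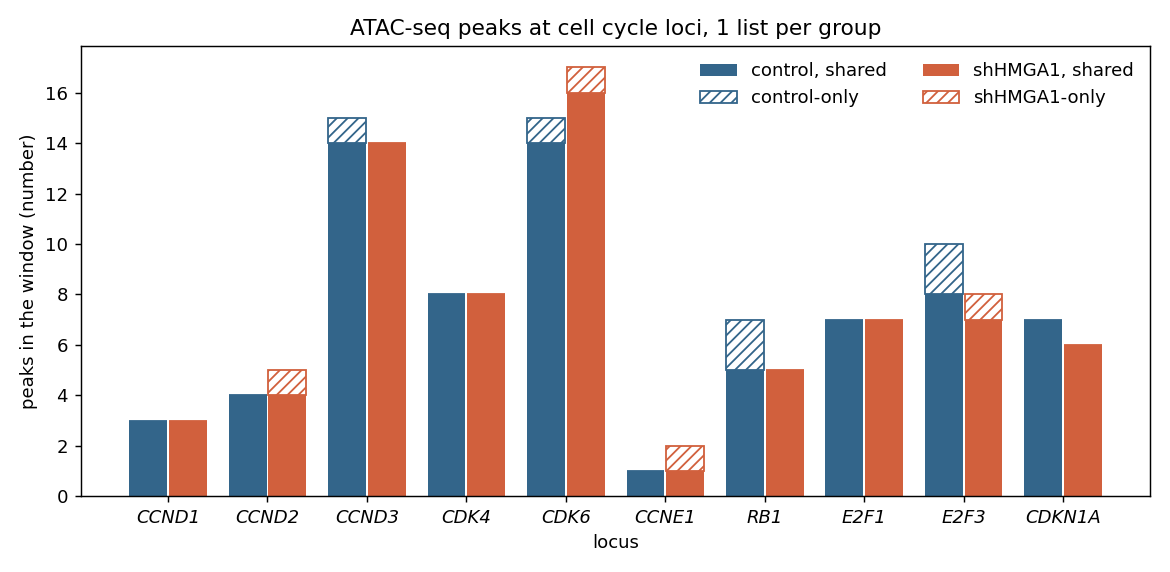
Number of peaks (y axis) in the window of each locus (x axis), in the control list (blue) and the shHMGA1 list (orange); filled parts are peaks shared with the other list and hatched parts are unshared. The bars reach 15 and 17 at CDK6 and 1 and 2 at CCNE1, and hatched parts are absent at CCND1, CDK4, E2F1 and CDKN1A.

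The loci differed more in layout than in number. CDK4 was the densest window with 26.7 control peaks per 100 kb, followed by E2F1 and CDKN1A with 17.5 each. RB1 and CCNE1 were the sparsest, with 3.33 and 2.22. At each of the 10 loci the peak with the largest area in the control list overlapped the one with the largest area in the shHMGA1 list. The area is the authors' own value, the area under the peak's significance curve. It grows with width and depends on depth, so it was used only to rank peaks within a list and values of the 2 lists are not compared as changes. Of the control members, 18 of 77, spread over 9 loci, were in the top decile of their list by area; in the shHMGA1 list it was 19 of 75, also over 9 loci. CCND1 was the locus without such a peak in either list.

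**Figure D2:**
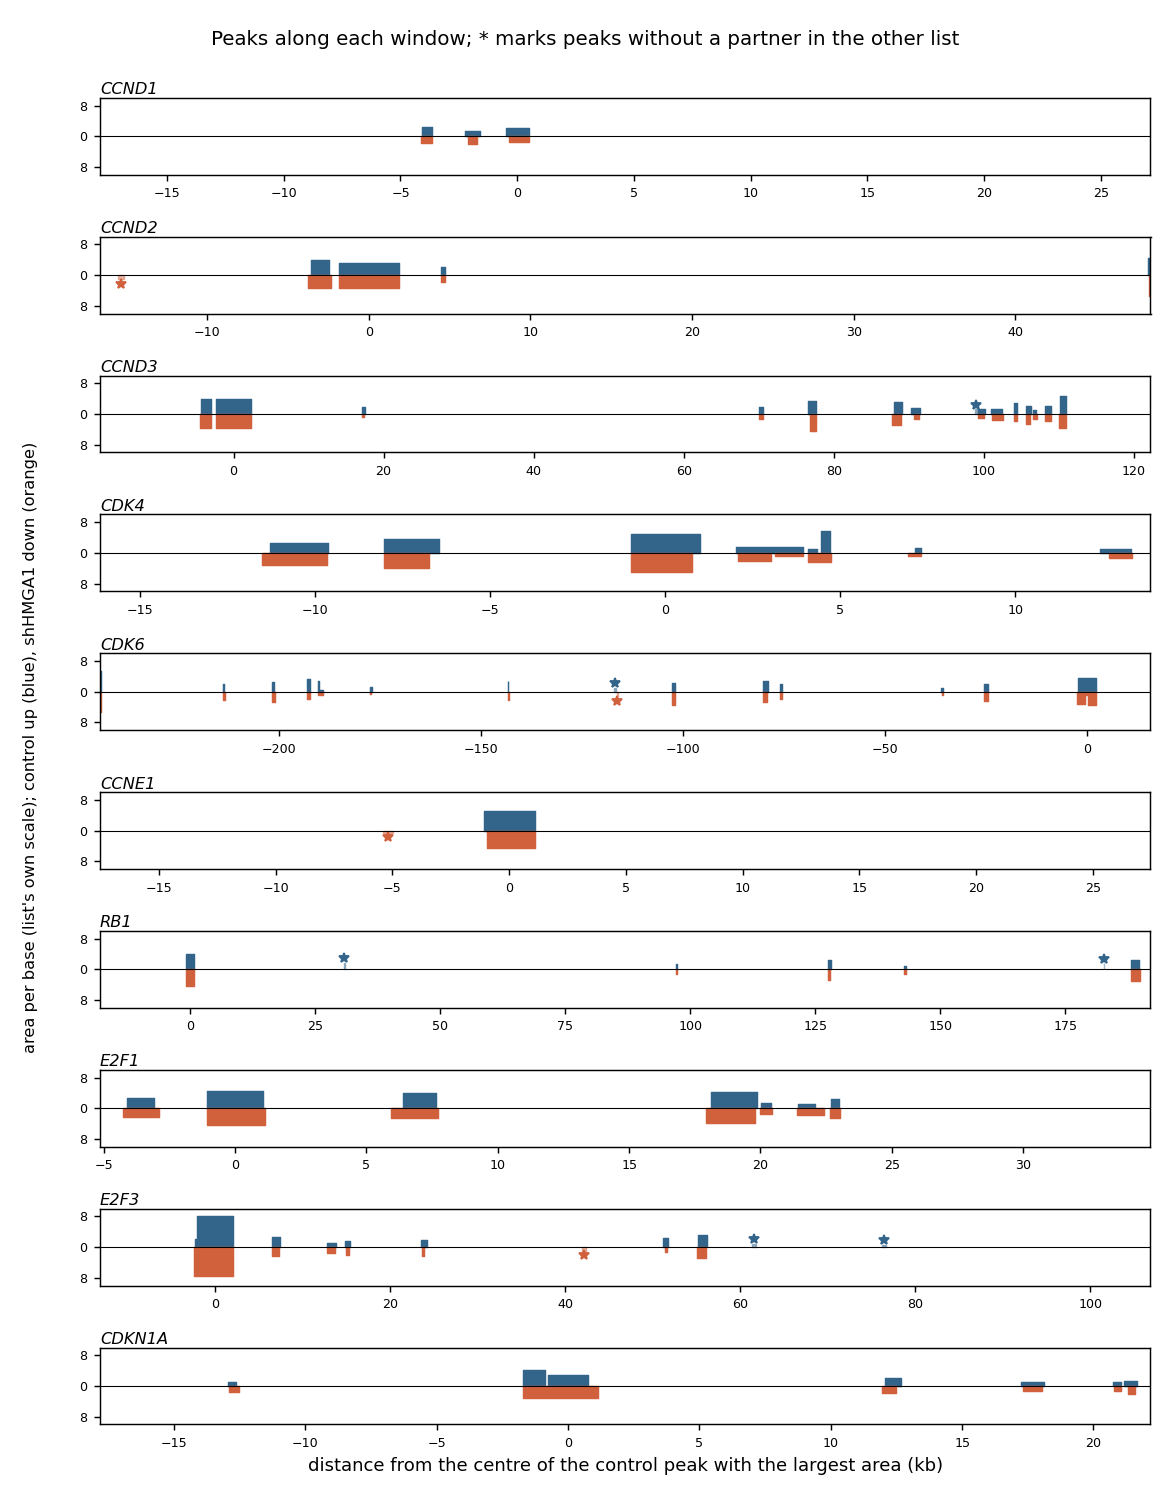
Position of each peak within its window, as distance in kb from the centre of the control peak with the largest area (x axis), with area per base on each list's own scale (y axis, control upwards in blue, shHMGA1 downwards in orange). Stars mark the 10 unshared peaks, which are short bars away from the widest peaks, and the wide CDK6 control peak stands over separate shHMGA1 peaks.

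Among the D-type cyclins, CCND1 had the least accessible window by area. Its 3 control peaks had areas of 1160, 764 and 2229 and its 3 shHMGA1 peaks 828, 794 and 1207. The highest, chr11:69457374-69458376 in control, stood at percentile 83 of its list, and the highest shHMGA1 peak at percentile 70.1. All 3 sites were shared. Their widths were 461, 609 and 1003 bp in control and 485, 394 and 846 bp in shHMGA1, so the middle site was 1.55-fold narrower in shHMGA1 and the first was about as wide. The 500 kb on both sides of the window held 19 control and 21 shHMGA1 peaks, the fewest of any locus in each list.

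CCND2 was dominated by an accessible stretch of 3697 bp in control and 3720 bp in shHMGA1, beginning at chr12:4379787 and chr12:4379802. Its area was 11875 in control (percentile 98.7) and 12118 in shHMGA1 (percentile 98.8), 54.4% and 54.5% of the summed area of the window. Summits of this pair lay 2 bp apart. A flanking peak was 1170 bp wide in control and 1441 bp in shHMGA1. The largest width change of the locus was at the window's edge, where chr12:4429855-4430988 measured 1134 bp in control and the shHMGA1 peak 815 bp, 1.39-fold narrower. The 1 shHMGA1-only peak, chr12:4366130-4366467, was weak (area 347, percentile 27.4) and lay 11567 bp from the nearest control peak. TIGAR is the protein-coding neighbour of CCND2 within 20 kb in RefSeq.

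CCND3 held 15 control and 14 shHMGA1 peaks, most of them in 2 clusters at opposite ends of a 140 kb window. One cluster had the widest peak of all 10 loci, chr6:41905458-41910156 in control, 4699 bp with an area of 17701, and 4690 bp with 17171 in shHMGA1; both stood at percentile 99.6. The other cluster had 11 control peaks between chr6:41984408 and chr6:42018734, of which the highest by area had 3610 and the highest in shHMGA1 3503. Of 14 one-to-one pairs (a peak overlapping exactly 1 peak of the other list, and the reverse), 9 were narrower in shHMGA1 and 5 wider, with a median log2 width ratio of -0.09. The largest difference was at chr6:41998122-41999231, 1110 bp in control and 689 bp in shHMGA1, 1.61-fold narrower. The only unshared peak was a control-only site of 198 bp with an area of 231, 150 bp from a shHMGA1 peak. RefSeq places MED20, BYSL and TAF8 within 20 kb of CCND3, and which peaks belong to which gene was not determined.

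Of the kinase partners, CDK4 was packed with peaks, all shared: 8 in each list within 30 kb. The one with the largest area, chr12:58145166-58147122, was 1957 bp wide with an area of 9608 (percentile 97.8) in control. The shHMGA1 peak was 1753 bp wide with 8843 (percentile 97.3). Peak borders moved in both directions at this locus. A control peak of 1904 bp was cut in shHMGA1 into peaks of 960 and 798 bp with 106 bp between them, while 2 control peaks of 234 and 245 bp, 130 bp apart, were joined in shHMGA1 into 1 of 636 bp. The largest width change was at a weak site, 174 bp in control and 364 bp in shHMGA1, 2.09-fold wider, with areas of 230 and 323. CDK4 is short, 4.58 kb, and RefSeq lists 5 protein-coding neighbours within 20 kb (AGAP2, TSPAN31, MARCHF9, CYP27B1 and METTL1), so the window is not specific to CDK4. In the flanks of 500 kb, 18 of 63 control peaks (28.6%, near the whole-list 24.9%) and 0 of 47 shHMGA1 peaks (whole list 14.8%) were unshared.

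CDK6 was the largest window and the one with the clearest broken peak. In control, chr7:92461951-92466508 was a single stretch of 4558 bp with an area of 15761 (percentile 99.5). In the shHMGA1 list the same stretch was covered by 3 peaks of 1948, 222 and 1963 bp with areas of 6340, 208 and 6770, separated by gaps of 208 and 230 bp. The outer of these stood at percentiles 95 and 95.5 and the middle one at percentile 2. Over the whole lists, 3.58% of control peaks overlapped 2 or more shHMGA1 peaks and 3.72% of shHMGA1 peaks overlapped 2 or more control peaks. Among the members it was 2 of 77 (2.6%, interval 0.316 to 9.07) and 3 of 75 (4%, interval 0.833 to 11.2), within counting error of the lists. The smallest gap between neighbouring peaks was 101 bp in both lists, so peaks closer than that are never listed apart.

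The remaining CDK6 peaks were spread along the window and most were shared. Of 13 pairs, 7 were wider in shHMGA1, 5 narrower and 1 equal, with a median log2 width ratio of 0.05. The largest width difference was at chr7:92286741-92287402, 662 bp in control and 344 bp in shHMGA1, 1.92-fold narrower, with areas of 743 and 248. A control-only peak of 581 bp (area 557) and an shHMGA1-only peak of 231 bp (area 266) lay 121 bp from each other, so they counted as unshared by a small distance. At the low end of the window a peak of 1267 bp in control and 1265 bp in shHMGA1 crossed the border and was counted whole; FAM133B is the neighbour of CDK6 in RefSeq.

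CCNE1 had the simplest window. Its 1 control peak, chr19:30301435-30303619, was 2185 bp wide with an area of 11106 (percentile 98.4) and a summit −log10 p of 19. The shHMGA1 partner was 2070 bp wide with an area of 9538 (percentile 97.8) and a summit value of 17.2. Summits lay 39 bp apart. The shHMGA1 list added 1 weak peak of 417 bp (area 232, percentile 8.01) 3894 bp away. RefSeq lists no other protein-coding gene within 20 kb. In the flanks of 500 kb, 14 of 50 control peaks (28%, whole list 24.9%) and 3 of 37 shHMGA1 peaks (8.11%, whole list 14.8%) were unshared.

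RB1 had the lowest ratio of peak numbers among the loci with at least 5 peaks, 7 control against 5 shHMGA1 peaks. The ratio of 0.714 has a binomial interval of 0.179 to 2.61, which holds the whole-list 0.886. Above the joined threshold, and with equal numbers of peaks, it was 3 against 3. The difference rests on 2 weak control-only sites, 28.6% of the control peaks beside 24.9% over the whole list. These control-only peaks were 170 and 152 bp wide with areas of 288 and 245 (percentiles 19.2 and 11.1). The nearest shHMGA1 peaks were 29899 and 5406 bp away. The peak with the largest area was steady in width, 1693 bp at chr13:48877162-48878854 in control and 1702 bp in shHMGA1, with areas of 6813 (percentile 95.6) and 7237 (percentile 96). A second wide peak near the far border of the window was 1652 bp in control and 1639 bp in shHMGA1. The largest width change was at chr13:49005524-49006110, 587 bp in control and 374 bp in shHMGA1, 1.57-fold narrower. LPAR6 and RCBTB2 are the RefSeq neighbours.

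The E2F loci were opposite in peak width. At E2F1 all 7 sites were shared one to one, and all 7 were wider in the shHMGA1 list. Their control widths were 1016, 2122, 1265, 1777, 396, 640 and 332 bp, and their shHMGA1 widths were 1378, 2230, 1812, 1869, 452, 1038 and 358 bp in the same order. The median log2 width ratio was 0.19, and covered length was 7548 bp in control and 9137 bp in shHMGA1, the highest ratio of the 10 loci at 1.21. The largest change was at chr20:32276577-32277216, 1.62-fold wider in shHMGA1. Widening was small at the peaks with the largest areas: 1.05-fold at chr20:32254089-32256210 (area 9562 in control and 9639 in shHMGA1, percentile 97.8 in both) and 1.05-fold at chr20:32273258-32275034. In the flanks of 500 kb, 6 of 18 pairs were wider in shHMGA1, with a median of -0.07, so the flanks did not show the widening seen within the window. E2F1 is 10.9 kb long with 4 protein-coding neighbours within 20 kb (NECAB3, C20orf144, ACTL10 and PXMP4).

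At E2F3, by contrast, all 6 one-to-one sites were narrower in shHMGA1. Control widths were 937, 984, 511, 615, 541 and 1066 bp, and shHMGA1 widths were 790, 972, 354, 224, 258 and 1003 bp. The median log2 width ratio was -0.39. It shrank to -0.09 with a reciprocal overlap of 50%, -0.17 above the joined significance threshold and -0.25 after merging peaks within 150 bp, with 1 pair wider in each case. That wider pair was each time the main peak of the locus, described below, which is not among the 6 sites here. The reciprocal rule cannot keep a pair whose widths differ more than 2-fold. It therefore dropped the 2.75-fold and 2.10-fold pairs by construction, and its value cannot show how stable the narrowing is. The joined threshold, a summit −log10 p of 5.24, also dropped the 2.10-fold pair, whose shHMGA1 peak had 5.22. The site at chr6:20426722-20427336 was 2.75-fold narrower and the site at chr6:20454311-20454851 was 2.10-fold narrower. These 2 sites had areas of 1156 and 1256 in control (percentiles 69.8 and 71.8) and of 520 and 349 in shHMGA1 (percentiles 43.8 and 27.5). In the flanks of 500 kb, 22 of 50 pairs were wider in shHMGA1, with a median of -0.04.

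The main E2F3 peak did not take part in that narrowing. It was chr6:20401069-20405180 in control, 4112 bp, with the largest area of all members, 33354 (percentile 99.9), and a small separate peak of 135 bp lay 117 bp before it. In shHMGA1 both were covered by 1 peak of 4389 bp with an area of 33492 (percentile 99.9). This stretch made up 74.6% of the summed area of the control window and 80.6% in shHMGA1. The unshared peaks of the locus were 2 control-only sites (areas 415 and 241) and 1 shHMGA1-only site (area 461), all between 5277 and 20135 bp from the other list's nearest peak.

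**Figure D3:**
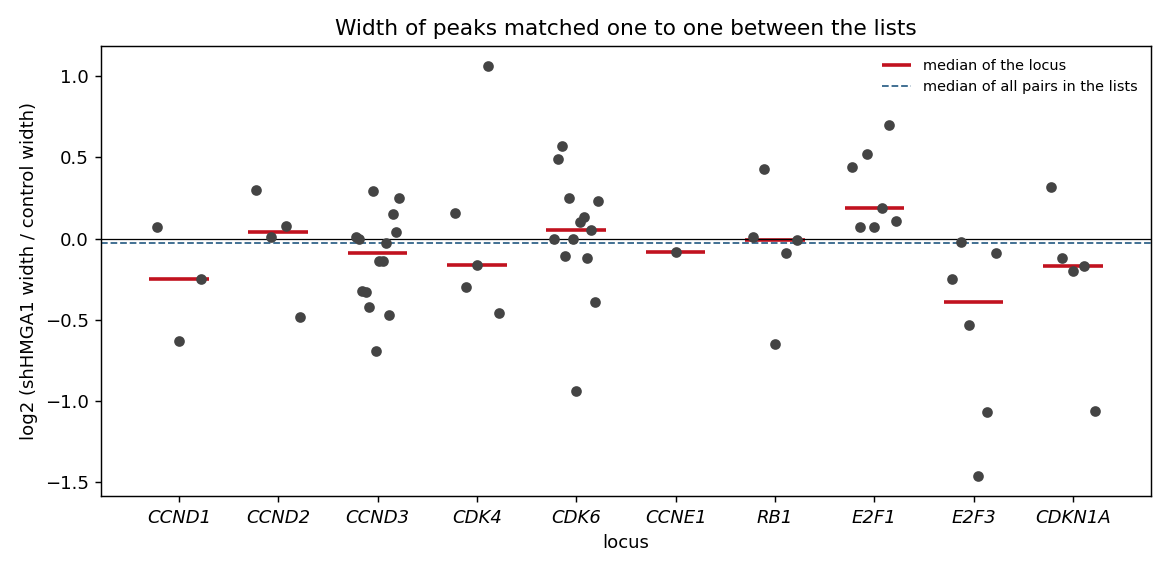
Log2 ratio of shHMGA1 width over control width (y axis) for each of the 63 peaks matched one to one, by locus (x axis); red bars are the median of each locus and the dashed line is the median of all 83581 pairs in the lists. All 7 E2F1 points lie above 0 and all 6 E2F3 points lie below it, while the other loci with at least 3 pairs have points on both sides.

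Over the 10 loci neither direction prevailed beyond the background. Of 63 pairs, 28 (44.4%, interval 31.9 to 57.5) were wider in shHMGA1, against 44.8% of all 83581 pairs, and the median log2 width ratio was -0.01 against -0.03. At least 1.5-fold narrower were 7 of 63 pairs (11.1%, interval 4.59 to 21.6), beside 13.8% of all pairs. At least 1.5-fold wider were 2 of 63 (3.17%, interval 0.387 to 11), beside 9.80%. The backgrounds lie inside these intervals, so the loci together were not set apart from the lists by width. E2F1 and E2F3 were singled out after their values were seen, and with 1 list per group neither direction could be tested. Summits moved little, as in the lists at large: the median shift over the 63 pairs was 22 bp, against 20 bp over all pairs. Of the 63 pairs, 55 (87.3%) moved by at most 100 bp, near the 83.6% of all pairs.

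CDKN1A, the p21 gene, kept all its sites, with 7 control and 6 shHMGA1 peaks that differ by 1 join. In control, peaks of 859 bp (chr6:36646103-36646961, area 3506) and 1509 bp (chr6:36647071-36648579, area 4414) were 109 bp apart. In shHMGA1 a single peak of 2865 bp, chr6:36646092-36648956, covered both, with an area of 9036. Its percentile was 97.5, whereas the separate control peaks stood at percentiles 89.2 and 91.8; the area grows with width, so these ranks are not of like stretches. Beyond the joined stretch, 4 of 5 pairs were narrower in shHMGA1 (median log2 ratio -0.17). After merging within 150 bp 2 of 4 pairs were wider and the median was 0.04, but other pairs were then compared. Merging turned the joined stretch into a pair that was wider in shHMGA1, and it fused the control peaks of 2 narrower pairs. With a reciprocal overlap of 50%, 2 of 5 pairs were wider (median -0.12). Above the joined significance threshold it was 0 of 2 (median -0.59). The largest difference was at chr6:36668992-36669498, 507 bp in control and 243 bp in shHMGA1, 2.09-fold narrower. In the flanks of 500 kb, 32 of 39 pairs were wider in shHMGA1 (44.8% of all pairs in the lists), with a median log2 width ratio of 0.20.

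Very wide peaks were a shared feature of CCND2, CCND3, CDK6 and E2F3, each with 1 control peak over 3 kb. That is 4 of 77 control members (5.19%, interval 1.43 to 12.8) against 1.22% of the control list. In shHMGA1 it was 3 of 75 (4%, interval 0.833 to 11.2) against 1.29%, the missing one being the broken CDK6 stretch. The whole-list share lay just below the control interval and inside the shHMGA1 interval, so in shHMGA1 the excess was within counting error. CCND3, CDK6 and E2F3 supplied the 3 control members in the top 1% of the list by area, and CCND3 and E2F3 the 2 shHMGA1 members.

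**Figure D4:**
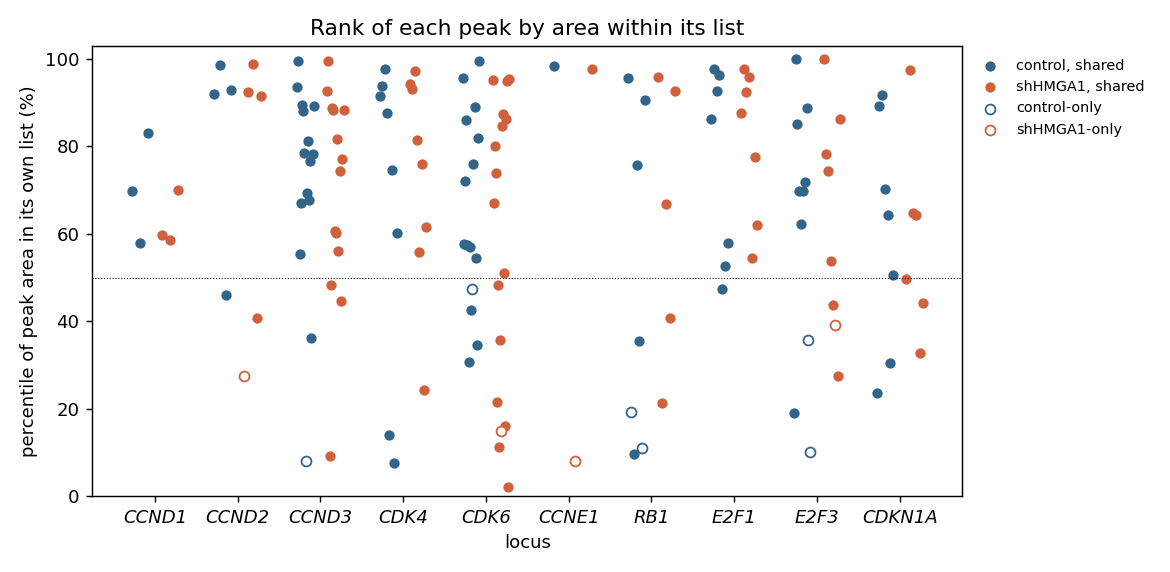
Percentile of each peak's area within its own list (y axis, %) by locus (x axis), for control (blue) and shHMGA1 (orange); open circles are unshared peaks and the dotted line is the middle of the list. All 10 open circles lie below the dotted line, and each locus except CCND1 has at least 1 peak above percentile 90 in both lists.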

How the data were processed

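ATAC-seq was analysed from 2 peak lists, 1 for 3 control and 1 for 3 shHMGA1 samples labelled DAMI; how the samples of a group were combined is not given in the sources used here, nor is whether libraries of SET-2, a line named in the series text, entered the lists. Peaks were called with Genrich on hg19, per the submitters' processing notes; version, settings, aligner and read filters are likewise not given. Tagmentation used 50000 cells and 2 µl of Tn5 for 45 min at 37 °C, per the labels' protocols. The deposited positions and summit offsets are whole bases. The deposited signal (area under the significance curve), the deposited score derived from it and the deposited summit −log10 p (not adjusted) are the authors' values; the area has a minimum of 200 in both lists. The deposited q-value column is −1 throughout and was not used.

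Peaks overlapping a window were members. Sharing meant at least 1 bp of overlap; widths were compared for one-to-one pairs, and shares carry exact Clopper-Pearson 95% intervals for counting error. Beside a share of 0 stands the limit that 3 counts allow. No test was possible with 1 list per group. The overlap code was tested on simulated lists. Gene neighbours (within 20 kb) and promoter sequences came from RefSeq on GRCh38.p14, with no coordinates converted. The other cell cycle genes listed for this work were not analysed here, since no hg19 annotation was used. Named sites were, per locus, the peak with the largest area in each list, up to 3 unshared peaks per list by area, the pair with the largest width change and all peaks over 3 kb; other sites were named after their values were seen. Members and lists were chosen with earlier results of these data known. Alternatives were a 50% reciprocal overlap, a 500 bp distance, a joined significance threshold, equal numbers of peaks, merging within 150 bp, windows extended by 50 kb and placement by summit. Python 3.11.15, numpy 2.4.6, pandas 2.3.3, scipy 1.17.1, matplotlib 3.10.9 and hg19 chromosome lengths from GenomeInfoDb 1.38.1 were used.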

Additional observations from a re-analysis of the deposited data

How the results depend on the processing

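Over the 10 loci the ratio of peak numbers was 0.903 to 1.06 under the alternatives and 0.974 as reported, always inside its counting interval. The ratio of covered length was 0.930 to 0.953 against 0.975. Counts of unshared peaks depended on the rule. In place of 6 control-only and 4 shHMGA1-only peaks, a reciprocal overlap of 50% left 15 and 13. The joined threshold (summit −log10 p of 5.24), which filters both lists, gave 8 and 2. With the 56305 peaks of highest summit −log10 p from each list, also a filter, the counts were 5 and 7, so the order turned. A distance of 500 bp gave 4 and 3, and merging 5 and 4. The whole-list share was the higher under each of these alternatives, for both lists. Placement by summit changed the order of peak numbers at 0 loci; the others changed it at 3 to 6 of the 10 loci, so the order at a single locus is not a stable result. The median log2 width ratio stayed between -0.01 and 0.00. At E2F1 all pairs were wider in shHMGA1 under each alternative run (7 of 7, 7 of 7 and, after merging, 5 of 5). At E2F3, 1 pair was wider under each of them (1 of 5, 1 of 6 and 1 of 7). It was each time the main E2F3 peak, which was not one-to-one as reported. The reciprocal overlap rule by itself drops pairs whose widths differ more than 2-fold, among them the 2.75-fold and 2.10-fold narrower E2F3 pairs. The joined threshold also dropped the 2.10-fold pair. Merging within 150 bp closed the breaks and joins at CDK4 and E2F3. After it, 2 peaks at CDK6 and 1 at CDKN1A overlapped 2 or more of the other list; the 109 bp gap of the CDKN1A join is closed by this rule, so that case is another one. No paired analysis was possible because each list stands for its whole group, which also prevents leaving out a replicate. Unknown depth limits every statement on weak peaks.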
